A study of Mus musculus with 6 samples.

Results

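The interferon regulatory factors (IRFs) are a family of transcription factors that share an N-terminal DNA-binding domain rich in tryptophan and bind GAAA repeats in promoters and enhancers. The 8 genes Irf1, Irf2, Irf3, Irf4, Irf5, Irf7, Irf8 and Irf9 were taken by name from the 23183 genes listed for each library. The RNA came from primary ILC2, the innate lymphoid cells that make type 2 cytokines, of wild-type mouse lung, kept for 24 h with 10 ng/ml each of interleukins 2, 7 and 33. The cells also received either DTA-1, which binds and activates the co-stimulatory receptor GITR (3 libraries), or an IgG2b isotype control antibody (3 libraries). All libraries, controls included, therefore came from cytokine-activated cells, and no unstimulated cells were compared. The labels do not state strain, age or whether libraries came from separate animals, so each p-value reflects only how these samples vary, and that variation may be technical.

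IRF1 activates and IRF2 antagonises transcription at shared sites. IRF3 and IRF7 are activated by the kinases TBK1 and IKK-epsilon below sensors of nucleic acids and switch on type I interferon genes, and IRF9 joins STAT proteins in the complex ISGF3 below the interferon receptor. IRF5 acts below MyD88 in myeloid cells. IRF4 and IRF8 bind DNA poorly alone and act with partners, PU.1 at ETS-IRF composite elements and BATF with JUN proteins at AP-1-IRF elements. IRF4 is induced by antigen-receptor and cytokine signals in lymphocytes and takes part in type 2 cytokine expression in T helper cells and ILC2.

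The windows before the start sites of 5 genes are shown because these are the members whose groups lay apart (Irf4, Irf5, Irf2 and Irf8) and the member nearest to the type 2 cytokine locus (Irf1). Each is 250 bases up to the start site, from RefSeq on GRCm38.p6, with matches to 5 motifs in capitals.
Irf4, chr13:30748983-30749232, plus strand: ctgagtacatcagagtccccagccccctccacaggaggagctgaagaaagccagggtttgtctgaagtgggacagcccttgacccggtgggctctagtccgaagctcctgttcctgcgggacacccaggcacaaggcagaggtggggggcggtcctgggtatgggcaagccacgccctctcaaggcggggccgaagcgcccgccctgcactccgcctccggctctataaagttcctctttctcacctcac
Irf5, chr6:29526375-29526624, plus strand: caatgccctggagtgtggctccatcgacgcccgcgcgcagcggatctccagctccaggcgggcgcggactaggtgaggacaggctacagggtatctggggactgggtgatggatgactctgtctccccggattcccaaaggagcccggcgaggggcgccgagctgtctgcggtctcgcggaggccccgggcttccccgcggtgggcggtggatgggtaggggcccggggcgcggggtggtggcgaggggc
Irf2, chr8:46739495-46739744, plus strand: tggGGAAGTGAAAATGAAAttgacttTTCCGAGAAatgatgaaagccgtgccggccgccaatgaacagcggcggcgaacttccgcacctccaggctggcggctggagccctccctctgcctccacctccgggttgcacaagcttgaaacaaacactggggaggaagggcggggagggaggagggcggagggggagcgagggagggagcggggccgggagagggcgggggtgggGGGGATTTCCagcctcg
Irf8, chr8:120736108-120736357, plus strand: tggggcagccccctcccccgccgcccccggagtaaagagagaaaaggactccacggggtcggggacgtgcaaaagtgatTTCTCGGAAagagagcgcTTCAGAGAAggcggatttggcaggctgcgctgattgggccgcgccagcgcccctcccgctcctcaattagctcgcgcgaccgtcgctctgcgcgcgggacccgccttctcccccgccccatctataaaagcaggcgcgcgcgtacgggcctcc
Irf1, chr11:53769764-53770013, plus strand: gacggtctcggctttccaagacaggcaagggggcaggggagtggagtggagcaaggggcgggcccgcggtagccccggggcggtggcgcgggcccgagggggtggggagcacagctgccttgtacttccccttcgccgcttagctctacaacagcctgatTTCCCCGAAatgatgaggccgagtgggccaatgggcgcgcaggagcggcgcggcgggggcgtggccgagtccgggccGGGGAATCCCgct

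The motifs were searched on both strands of every window of that length, 32851 in all. The ISRE core, a pair of GAAA repeats spaced by 2 bases that IRF dimers bind, was in 2.98% of windows, and the ETS-IRF composite element, GGAA and GAAA spaced by 2 bases, in 2.30%. The STAT element GAS, TTCNNNGAA, was in 7.02%, the AP-1 element TGANTCA in 6.75% and the NF-kB consensus in 7.25%. Irf2 held 4 matches: an ETS-IRF element (GGAAGTGAAA) that overlaps an ISRE core (GAAAATGAAA), a GAS element (TTCCGAGAA) and an NF-kB match (GGGGATTTCC). Irf8 held 2 GAS matches, TTCTCGGAA and TTCAGAGAA. The first window of Irf1 held a GAS element, TTCCCCGAA, and the NF-kB match GGGGAATCCC, which fits the consensus on both strands. None of the 5 motifs was found in the windows of Irf3, Irf4, Irf5, Irf7 and Irf9, which says only that these letters are absent there.

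Irf4 was the main IRF transcript of these cells. Values are in FPKM, fragments per kilobase of transcript scaled to library depth, which allows levels of different genes to be set side by side. Irf4 measured 252, 234 and 227 FPKM in DTA-1 replicates 1, 2 and 3, against 162, 166 and 198 FPKM in IgG2b replicates 1, 2 and 3. Every DTA-1 library lay above every IgG2b library, and by its mean over the 6 libraries Irf4 ranked 377 among the 23183 genes. The means were 238 ± 13.2 FPKM with DTA-1 and 175 ± 19.7 FPKM with the isotype (SD, n = 3 each), a ratio of 1.36. On the log2(FPKM + 1) scale the fold change was 0.44 ± 0.12 (SE; 95% interval 0.17 to 0.72), which did not pass the threshold of 0.05 over all 10501 genes tested (limma adjusted p = 0.163, unadjusted p = 0.00575). The estimate lay between 0.35 and 0.53 under the alternatives tried. Irf4 lies on chromosome 13 at 30749226 to 30766976 (GRCm38, the assembly of mm10), and no other annotated gene overlaps it.

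**Figure D1:**
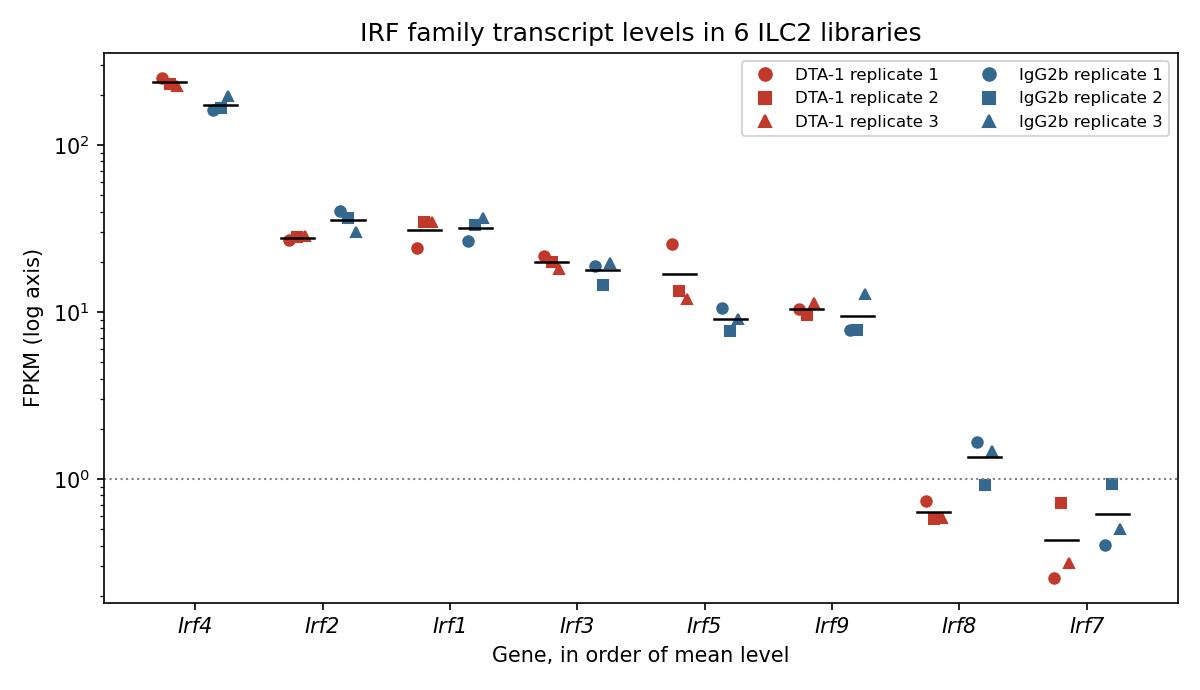
FPKM (log axis) of the 8 IRF genes in each of the 6 libraries, in order of mean level, with DTA-1 libraries left of IgG2b libraries, black bars at group means and a dotted line at 1 FPKM. Irf4 stands apart at 162 to 252 FPKM, 5 genes lie between 7.73 and 40.3 FPKM, and Irf8 and Irf7 lie at or below 1.66 FPKM.

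The order of mean levels over the 6 libraries was Irf4, Irf2, Irf1, Irf3, Irf5, Irf9, Irf8 and Irf7. Irf4 had 6.48 times the mean of Irf2, with ranges apart. Irf2 and Irf1, at 31.8 and 31.6 FPKM, could not be ordered, as Irf2 was the higher in 3 of 6 libraries. Irf1 lay above Irf3 in 6 of 6 libraries with ranges apart, while Irf3 against Irf5 and Irf5 against Irf9 overlapped in range. Irf9 had 10.0 times the mean of Irf8, and the ranges of Irf8 and Irf7 overlapped. These values correspond to an estimated 14775 to 23640 fragments per library for Irf4, 325 to 1939 for Irf1, Irf2, Irf3, Irf5 and Irf9, 33 to 91 for Irf8 and 10 to 34 for Irf7.

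IRF4 and IRF8 share partners and elements, and their transcripts were far apart in level. Irf8 measured 0.744, 0.574 and 0.589 FPKM in the DTA-1 libraries, against 1.66, 0.924 and 1.48 FPKM in the IgG2b libraries. All 3 DTA-1 values lay below all 3 IgG2b values, and the means were 0.636 ± 0.0942 and 1.36 ± 0.385 FPKM (SD, n = 3 each). Irf8 did not reach 1 FPKM in 3 libraries and so was left out of the fit across genes. Its means on the log2(FPKM + 1) scale differed by -0.51 (exact 2-sided permutation test p = 0.10, the smallest that 3 against 3 allows), and by -0.95 with 0.1 added in place of 1. The counting intervals of DTA-1 replicate 1 (0.541 to 1.01 FPKM, exact Poisson, 95%) and IgG2b replicate 2 (0.680 to 1.22 FPKM) overlapped, so at this depth those libraries were not told apart. With no filter on low values, Irf8 did not pass (limma adjusted p = 0.288).

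Within a library, the log2 ratio of Irf4 over Irf8, with 1 added to each FPKM value, was 7.18, 7.22 and 7.16 with DTA-1, against 5.93, 6.44 and 6.32 with the isotype. The ratio was higher in every DTA-1 library, by 0.96 on average (exact 2-sided permutation test p = 0.10, the smallest possible, and 0.30 adjusted over the 3 pairs of genes compared). With 0.1 added in place of 1, the difference was 1.40. Because Irf4 lay higher and Irf8 lower in every DTA-1 library, the separation of the ratio and its p follow from the single genes and add no support. Irf4 made up 69.7, 68.6 and 68.2% of the summed FPKM of the 8 members in the DTA-1 libraries, against 60.4, 61.9 and 64.1% in the IgG2b libraries. That is 68.8 ± 0.750% and 62.1 ± 1.89% (SD, n = 3 each; exact permutation p = 0.10, the smallest possible). The share is built from the same Irf4 values, so its separation and p likewise add no support. The summed level of the 8 members was 345 ± 15.3 FPKM with DTA-1 and 281 ± 23.4 FPKM with the isotype. Most of both sums was Irf4, at means of 238 and 175 FPKM, so the sums largely repeat the values of Irf4.

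**Figure D2:**
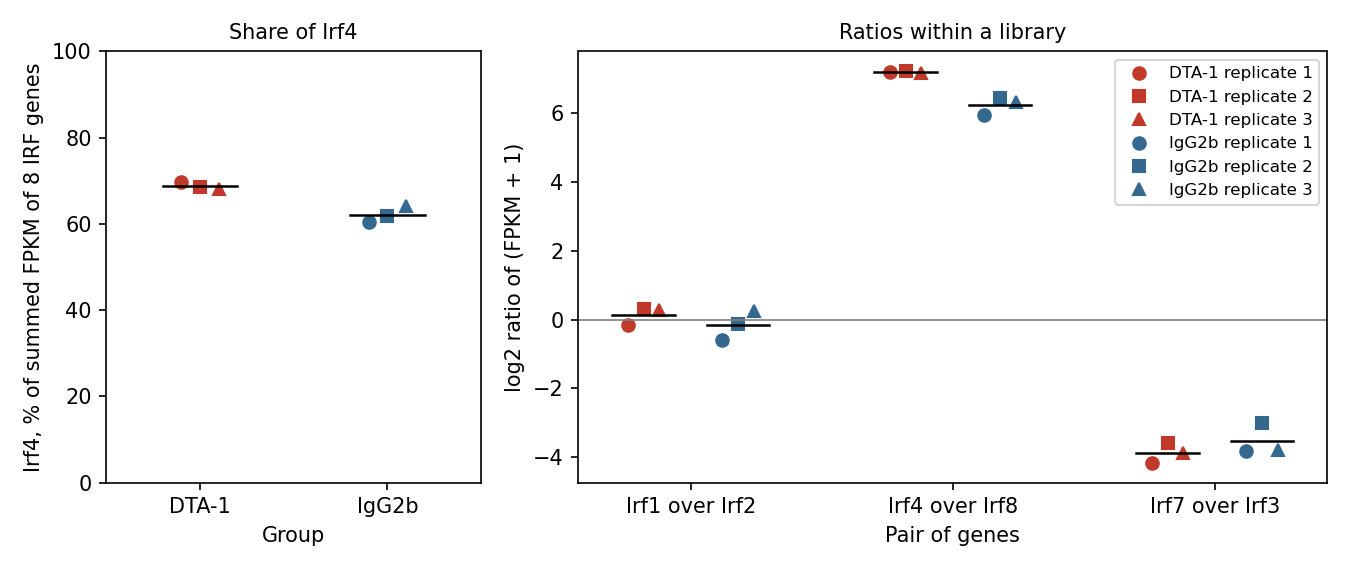
Left, share of Irf4 in the summed FPKM of the 8 IRF genes (percent); right, log2 ratios of (FPKM + 1) for 3 pairs of IRF genes; points are libraries, with DTA-1 left of IgG2b, and black bars are group means. The share, which is built from the same Irf4 values, lies at 68.2 to 69.7% with DTA-1 and 60.4 to 64.1% with the isotype. Of the 3 ratios, Irf4 over Irf8 is the pair whose groups do not overlap, which follows from the single genes.

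Irf5 showed the largest estimate of the tested members, and 1 library carried much of it. It measured 25.6, 13.3 and 12.04 FPKM in DTA-1 replicates 1, 2 and 3, against 10.5, 7.73 and 9.13 FPKM in IgG2b replicates 1, 2 and 3. All DTA-1 libraries lay above all IgG2b libraries, but DTA-1 replicate 1 stood far above the other two. The means were 17.0 ± 7.49 FPKM with DTA-1 and 9.13 ± 1.40 FPKM with the isotype (SD, n = 3 each), and the log2 fold change was 0.76 ± 0.26 (SE; limma adjusted p = 0.243). Without DTA-1 replicate 1 it was 0.44. Irf5 lies on chromosome 6 at 29526625 to 29541871, and its end overlaps Tnpo3, a nuclear import receptor gene on the opposite strand. Tnpo3 measured 45.7, 43.9 and 44.5 FPKM with DTA-1 and 40.7, 47.0 and 39.9 FPKM with the isotype. Whether the values of Irf5 hold reads of Tnpo3 was not tested.

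The activator Irf1 and its antagonist Irf2 had almost equal mean levels. Irf2 measured 27.1, 28.0 and 28.5 FPKM with DTA-1, against 40.3, 36.7 and 30.3 FPKM with the isotype. The DTA-1 values lay close together and below all IgG2b values, which were spread more widely. The log2 fold change was -0.34 ± 0.13 (SE; 95% interval -0.64 to -0.042; limma adjusted p = 0.294, unadjusted p = 0.0301). Irf1 measured 24.1, 34.8 and 34.7 FPKM with DTA-1 and 26.5, 33.2 and 36.4 FPKM with the isotype, so the groups overlapped and the lowest library of each group was replicate 1. Its log2 fold change was -0.05 ± 0.18 (SE; 95% interval -0.46 to 0.37; limma adjusted p = 0.942). The log2 ratio of Irf1 over Irf2 was 0.14 ± 0.26 with DTA-1 and -0.16 ± 0.42 with the isotype (SD, n = 3 each; exact permutation p = 0.40).

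Irf1 lies on chromosome 11 at 53770014 to 53778374, next to the type 2 cytokine genes. The end of Il5, the eosinophil growth factor gene, is 44908 bases away. Il5 measured 2324, 3683 and 3540 FPKM with DTA-1 and 1567, 2569 and 2371 FPKM with the isotype. Il13, which encodes a further type 2 cytokine, lies farther along and measured 5883, 5791 and 4593 FPKM with DTA-1 and 2160, 1980 and 2839 FPKM with the isotype. Il4 measured 10.1, 10.5 and 9.50 FPKM with DTA-1 and 11.7, 13.8 and 8.24 FPKM with the isotype. Replicate 1 was the lowest library of its group for Irf1 and Il5, but not for Il13 or Il4.

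**Figure D3:**
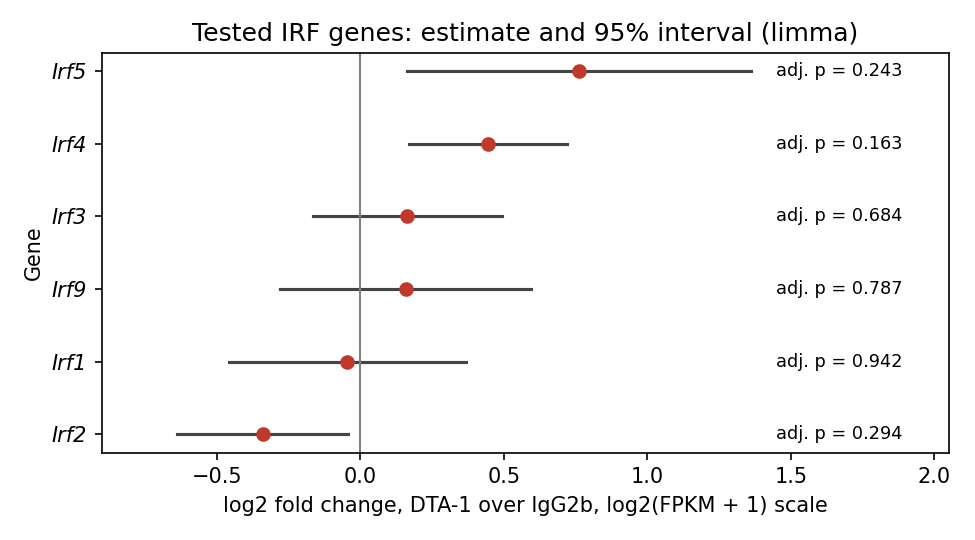
Log2 fold change of the 6 tested IRF genes, DTA-1 over IgG2b on the log2(FPKM + 1) scale, with 95% intervals from limma (n = 3 each) and adjusted p over all genes tested. The intervals of Irf4 and Irf5 lie above 0 and that of Irf2 below it, the other 3 cross 0, and no adjusted p is under 0.05.

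Irf3 and Irf9 were expressed at moderate levels with overlapping groups. Irf3 measured 21.6, 19.9 and 18.2 FPKM with DTA-1 and 18.9, 14.6 and 19.7 FPKM with the isotype, a log2 fold change of 0.16 ± 0.14 (SE; 95% interval -0.16 to 0.49; limma adjusted p = 0.684). Irf9 measured 10.5, 9.63 and 11.3 FPKM with DTA-1 and 7.86, 7.77 and 12.9 FPKM with the isotype. Its log2 fold change was 0.16 ± 0.19 (SE; 95% interval -0.28 to 0.60; limma adjusted p = 0.787), with IgG2b replicate 3 above every other library. Without IgG2b replicate 2 the estimates were 0.038 for Irf3 and 0.044 for Irf9, and without IgG2b replicate 3 they were 0.24 and 0.38. Irf9 was at 0.052 without IgG2b replicate 1, and Irf3 at 0.11 without DTA-1 replicate 1. Irf3 overlaps the start of Bcl2l12 on the opposite strand and Irf9 the end of Rnf31 on its own strand, so their values may hold reads of these neighbours. The authors' use of strand is not given in the sources used here.

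Irf7, the amplifier of type I interferon responses, was near the floor. It measured 0.257, 0.720 and 0.314 FPKM with DTA-1 and 0.403, 0.937 and 0.504 FPKM with the isotype, with overlapping groups and replicate 2 highest in each group (exact 2-sided permutation test p = 0.50). Its end overlaps Phrf1, which measured 21.2 to 24.3 FPKM with DTA-1 and 22.2 to 25.2 FPKM with the isotype. The log2 ratio of Irf7 over Irf3 was -3.88 ± 0.28 with DTA-1 and -3.54 ± 0.46 with the isotype (SD, n = 3 each; exact permutation p = 0.40).

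Over the whole family, 6 of the 8 members could be tested and none passed, where 0.0381% of all tested genes passed (3 higher, 0.0286%, and 1 lower, 0.00952%). At an unadjusted p under 0.05, Irf4 and Irf5 were higher and Irf2 lower, 3 of 6 members against 14% of all tested genes (6.22% higher, 7.73% lower). The same 3 genes were those whose groups did not overlap among the tested members, where 21.6% of all tested genes had groups without overlap (11.2% higher, 10.5% lower). The median log2 fold change was 0.16 for the 6 tested members and 0.01 for all tested genes. The members' median was 0.041 without IgG2b replicate 2 and 0.31 without IgG2b replicate 3.

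In the receptor and ISGF3 arm below interferons, 9 tested genes had estimates above 0 and 5 below. Of 15 genes, 14 were tested with limma and none passed, with 4 higher and 2 lower at an unadjusted p under 0.05, where 14% of all tested genes lay. The groups were apart for 5 higher and 2 lower genes, beside 21.6% of all tested genes. The median log2 fold change was 0.22, and 0.088 without DTA-1 replicate 1 or 0.097 without IgG2b replicate 2. Tyk2, a kinase bound to the type I interferon receptor, measured 36.7, 34.2 and 29.3 FPKM with DTA-1 and 21.2, 18.6 and 24.96 FPKM with the isotype (log2 fold change 0.61 ± 0.14, SE; limma adjusted p = 0.139). The groups were apart. Stat2, a partner of Irf9 in ISGF3, measured 3.92 ± 0.593 FPKM with DTA-1 and 4.05 ± 0.177 FPKM with the isotype (SD, n = 3 each). Jak2, the kinase of the interferon gamma receptor among others, measured 110.0, 85.1 and 88.8 FPKM with DTA-1 and 47.7, 79.8 and 59.5 FPKM with the isotype (limma adjusted p = 0.214). Socs1, an inhibitor of JAK kinases and the most abundant gene of the list, overlapped between groups at 176 to 338 FPKM with DTA-1 and 133 to 237 FPKM with the isotype. The 2 genes lower in every DTA-1 library were Socs3 and Ptpn2. Socs3 measured 22.1 to 28.4 FPKM with DTA-1 and 29.7 to 46.3 FPKM with the isotype (limma adjusted p = 0.226). Ptpn2 measured 42.0 to 58.2 FPKM with DTA-1 and 60.0 to 89.0 FPKM with the isotype (limma adjusted p = 0.278).

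Upstream of IRF3 and IRF7, 21 of the 25 listed sensor, adaptor and kinase genes were tested and none passed, with a median log2 fold change of 0.09. By limma's unadjusted p, 2 were higher and 2 lower, and the groups were apart for 2 higher and 3 lower genes. These counts are near the all-gene shares of 14% and 21.6%. Tmem173, which encodes the cyclic dinucleotide sensor STING, measured 91.6, 63.7 and 53.7 FPKM with DTA-1 and 49.6, 32.5 and 45.0 FPKM with the isotype (log2 fold change 0.69 ± 0.22, SE; limma adjusted p = 0.220). Mb21d1, which encodes the DNA sensor cGAS that feeds STING, measured 5.43, 5.51 and 5.91 FPKM with DTA-1 and 6.95, 9.42 and 8.06 FPKM with the isotype (-0.46 ± 0.14; limma adjusted p = 0.188). The estimates of this sensor pair thus had opposite signs. The adaptor ligase Traf6 measured 20.3 to 28.0 FPKM with DTA-1 and 15.2 to 16.5 FPKM with the isotype (limma adjusted p = 0.179). Optn, a TBK1-binding adaptor gene, measured 0.596 to 1.37 FPKM with DTA-1 and 1.90 to 2.44 FPKM with the isotype (limma adjusted p = 0.140), and it reached 1 FPKM in 1 DTA-1 library and all 3 isotype libraries, so the isotype libraries carried it past the filter. The kinase gene Tbk1 overlapped between groups, at 30.1 to 32.7 FPKM with DTA-1 and 28.6 to 41.6 FPKM with the isotype. The endosomal receptors Tlr3, Tlr7 and Tlr9 stayed below 0.1 FPKM in every library.

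Among 26 partners and regulators of IRF proteins, 24 were tested and none passed, with a median log2 fold change of -0.04. By limma's unadjusted p, 2 were higher and 5 lower, and the groups were apart for 2 higher and 6 lower genes, beside all-gene shares of 14% (7.73% lower) and 21.6% (10.5% lower). Spi1, which encodes PU.1, the ETS partner of IRF4 and IRF8, was at 0.0398 to 0.0792 FPKM with DTA-1 and 0 to 0.0442 FPKM with the isotype. Spib, its relative, was at or below 0.308 FPKM. The AP-1 partners differed in level. Jun lay at 8.96 to 17.1 FPKM and Batf3 at 7.86 to 20.1 FPKM over the 6 libraries, both with overlapping groups. The log2 fold change of Batf3 was 0.50 (limma adjusted p = 0.368). Batf measured 170, 183 and 186 FPKM with DTA-1 and 223, 287 and 227 FPKM with the isotype (log2 fold change -0.44 ± 0.13, SE; limma adjusted p = 0.186), all DTA-1 values being the lower ones. Junb, the most abundant of the list, measured 285 to 411 FPKM with DTA-1 and 170 to 394 FPKM with the isotype, with overlap. Ets1 and Ikzf3, lymphoid transcription factor genes of the ETS and Ikaros families, had the smallest p values. Ets1 measured 44.0, 51.8 and 53.2 FPKM with DTA-1 and 101, 88.1 and 73.0 FPKM with the isotype (-0.80 ± 0.15; limma adjusted p = 0.0923). Ikzf3 measured 12.03, 31.5 and 35.2 FPKM with DTA-1 and 54.0, 89.3 and 80.5 FPKM with the isotype (-1.57 ± 0.37; limma adjusted p = 0.139). The corepressor genes Irf2bp1, Irf2bp2 and Irf2bpl, whose products bind IRF2, overlapped between groups and were highest in the 2 replicate 1 libraries, at 13.1, 31.7 and 17.3 FPKM in DTA-1 replicate 1 and 11.99, 25.3 and 17.7 FPKM in IgG2b replicate 1.

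Classical targets of IRF proteins ranged widely in level, from genes at 0 to B2m, and none passed the test. Of 54 listed targets, 36 were tested with limma, with a median log2 fold change of 0.02. By limma's unadjusted p, 5 were higher and 6 lower, and the groups were apart for 6 higher and 7 lower genes, beside the all-gene shares of 14% and 21.6%. One of the higher genes, the adhesion molecule gene Vcam1, passed the filter only through the DTA-1 libraries, at 3.64, 1.10 and 1.73 FPKM with DTA-1 and 0.206, 0.670 and 0.432 FPKM with the isotype. Icam1, an adhesion molecule gene, measured 137, 105 and 94.9 FPKM with DTA-1 and 52.6, 51.4 and 65.5 FPKM with the isotype (log2 fold change 0.97 ± 0.17, SE; limma adjusted p = 0.0817). Cxcl10, a chemokine gene induced by interferons and NF-kB, measured 8.30, 3.02 and 3.30 FPKM with DTA-1 and 0.542, 1.41 and 1.19 FPKM with the isotype (1.44 ± 0.32; limma adjusted p = 0.129). Cd274, which encodes PD-L1, measured 11.3, 9.34 and 9.09 FPKM with DTA-1 and 6.11, 7.20 and 6.37 FPKM with the isotype (0.53 ± 0.13; limma adjusted p = 0.148). All 3 genes lay higher in every DTA-1 library. B2m, the light chain of MHC class I, was the most abundant target at 2968 to 3082 FPKM with DTA-1 and 2506 to 3467 FPKM with the isotype. Of the 18 targets under the filter, 13 stayed below 1 FPKM in every library, and Ifnb1, the interferon beta gene, and Cxcl9 were listed at 0 in each. Ifit1, Ifit3 and Mx2, typical genes of a type I interferon response, did not exceed 0.183 FPKM. The 7 tested targets lower in every DTA-1 library were Ifi47, Irgm1, Gbp3, Psmb9, Sp100, Samhd1 and Dtx3l. Ifi47 measured 16.9, 19.1 and 20.3 FPKM with DTA-1 and 21.6, 23.5 and 26.1 FPKM with the isotype (limma adjusted p = 0.298). Gbp3 measured 4.03, 6.27 and 8.14 FPKM with DTA-1 and 9.58, 10.6 and 8.88 FPKM with the isotype (limma adjusted p = 0.240). Some other interferon-induced targets of the list were expressed with overlapping groups. Over the 6 libraries, Bst2 lay at 65.9 to 86.5 FPKM, Ifi35 at 45.9 to 55.0, Igtp at 32.95 to 48.9 and Isg15 at 1.28 to 3.78.

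**Figure D4:**
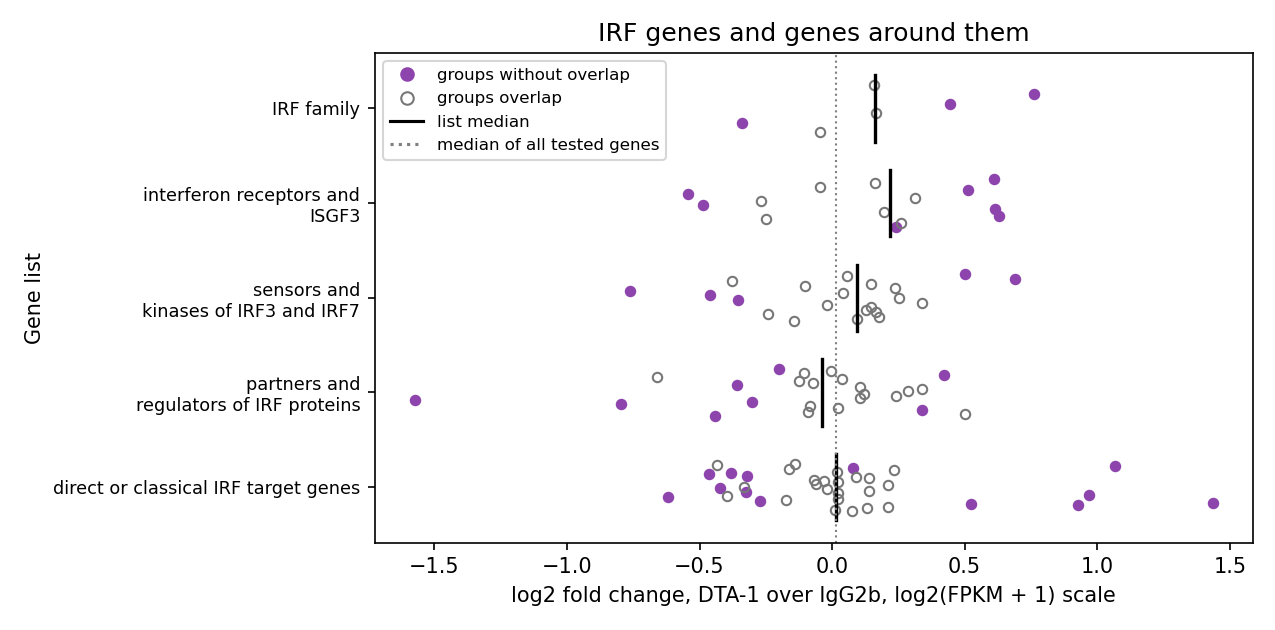
Log2 fold change (DTA-1 over IgG2b, log2(FPKM + 1) scale) of each tested gene of the IRF family and of 4 lists of genes around it; filled points are genes whose groups do not overlap, open points overlap, black bars are list medians and the dotted line is the median of all tested genes. List medians lie between -0.04 and 0.22, and no gene shown passed the adjusted threshold.

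The genes most like Irf4, Irf5 and Irf9, the tested members with the widest range over the libraries, were sought among 8137 tested genes with a mean of at least 5 FPKM. Likeness was the largest difference, over the 6 libraries, between the deviations of a pair of genes from their own means on the log2(FPKM + 1) scale. For Irf5 the closest genes were Sik1, a salt-inducible kinase gene (0.04), Zc3h12a, which encodes an RNase that degrades cytokine mRNAs (0.07), and Slc6a6, a taurine transporter gene (0.11). Sik1 measured 14.8, 7.76 and 7.08 FPKM with DTA-1 and 5.98, 4.14 and 5.33 FPKM with the isotype. Its high value in DTA-1 replicate 1 follows from the choice by likeness to Irf5. For Irf4 they were Snx11, a sorting nexin gene (0.05), 2410131K14Rik (0.05) and Cstb, a protease inhibitor gene (0.06). Cstb measured 171, 157 and 157 FPKM with DTA-1 and 107, 119 and 140 FPKM with the isotype. The separation of the groups for these 3 genes follows from the choice by likeness to Irf4. For Irf9 they were Bri3, Ring1 and 5830415F09Rik, at 0.14 to 0.15.

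**Figure D5:**
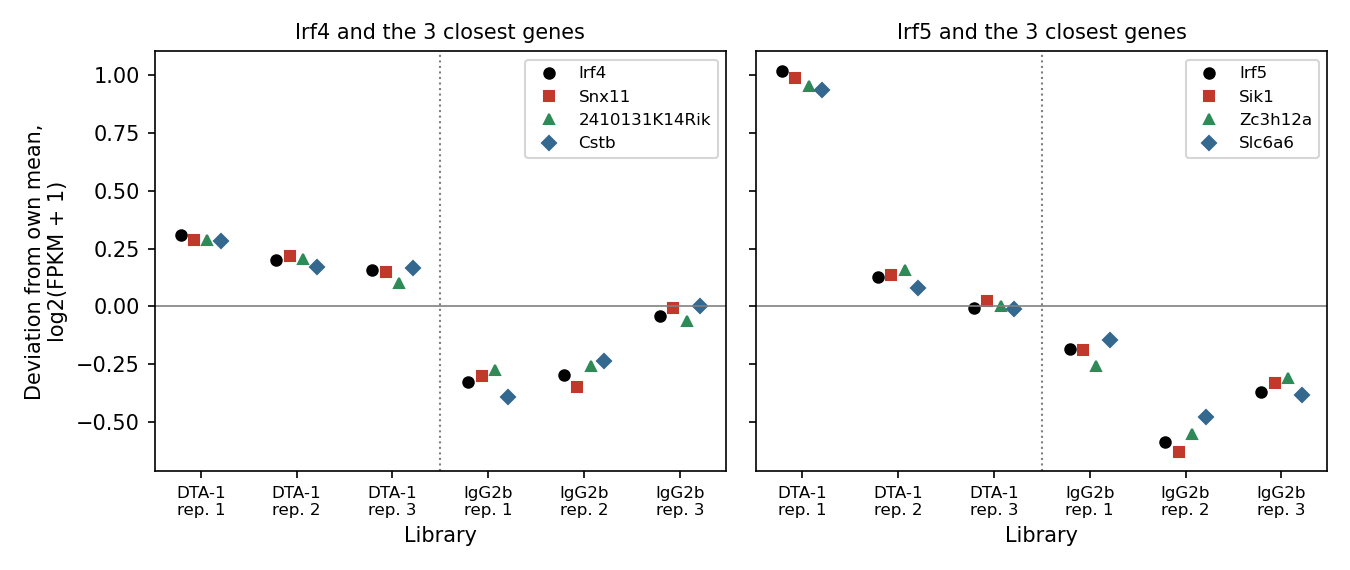
Deviation of each gene from its own mean over the 6 libraries, log2(FPKM + 1), for Irf4 (left) and Irf5 (right, black circles) and the 3 genes closest to each; DTA-1 libraries stand left of the dotted line and IgG2b libraries right of it. DTA-1 replicate 1 stands highest for Irf5 and, as the choice by likeness implies, for its 3 closest genes, while the DTA-1 libraries lie close together for Irf4.

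Because IRF genes mark other immune cells, markers of those cells were read beside them. All 12 ILC2 markers reached 1 FPKM in at least 3 libraries, with summed levels of 2128 to 2363 FPKM in DTA-1 and 2574 to 2876 FPKM in IgG2b libraries. Il2ra, at 1075 to 1290.0 FPKM with DTA-1 and 1265 to 1715 FPKM with the isotype, was the largest part of the sum. Klrg1, Il1rl1 and Arg1 lay lower in every DTA-1 library, where 21.6% of all tested genes had groups without overlap. They averaged 34.1, 182 and 69.3 FPKM with DTA-1 and 97.2, 253 and 95.2 FPKM with the isotype (limma adjusted p = 0.178, 0.249 and 0.207). The other ILC2 markers overlapped between groups, and none lay higher in every DTA-1 library. Among these, Gata3, Rora and Thy1 had estimates above 0. Gata3 averaged 179 FPKM with DTA-1 and 165 FPKM with the isotype (limma adjusted p = 0.807). Of 6 B cell markers, Cd79b alone reached that level, and the summed markers were 2.99 to 6.46 FPKM with DTA-1 and 3.35 to 7.25 FPKM with the isotype. Pax5 was at 0 in all libraries and Ms4a1 near 0. Of 7 macrophage and monocyte markers, Cd68 alone reached 1 FPKM in 3 libraries, Marco and Mertk were at 0, and the sums were 2.51 to 3.14 FPKM with DTA-1 and 2.47 to 4.25 FPKM with the isotype. Of 7 conventional dendritic cell markers, Xcr1 and H2-Ab1 reached it, Clec9a and Cd209a were at 0, Zbtb46 measured 1.86, 0.752 and 0.591 FPKM with DTA-1 and 0.143, 0.450 and 0.301 FPKM with the isotype, and the sums were 22.5 to 37.5 FPKM with DTA-1 and 25.8 to 31.1 FPKM with the isotype. Of 5 plasmacytoid markers, Bst2 and Tcf4 reached it, Klk1 was at 0 and Siglech near 0, with sums of 72.8 to 90.3 FPKM with DTA-1 and 71.0 to 75.6 FPKM with the isotype. Plasma cell sums were 69.4 to 81.3 FPKM with DTA-1 and 84.7 to 88.9 FPKM with the isotype, almost all from Xbp1, and Tnfrsf17 was at 0. Of 5 listed T cell markers, Cd3g was the most abundant, with sums of 8.40 to 9.76 FPKM with DTA-1 and 10.4 to 11.7 FPKM with the isotype. Markers of NK cells and ILC1 summed to at most 0.844 FPKM with DTA-1 and 1.52 FPKM with the isotype, and those of mast cells to at most 0.163 and 0.428 FPKM. Epithelial markers summed to 1.48 to 1.97 FPKM with DTA-1 and 3.89 to 4.65 FPKM with the isotype, mostly Epcam. Epcam lay lower in every DTA-1 library, with means of 1.52 FPKM with DTA-1 and 3.81 FPKM with the isotype. Its log2 fold change was -0.93 (limma adjusted p = 0.101). The part of other cell types in the values of Irf5 and Irf8 was not tested. In bulk RNA, fewer cells of a type and less RNA per cell cannot be told apart.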

How the data were processed

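The authors deposited 1 table per library, pairing gene symbols with a single value each, taken here as FPKM because neither the labels nor the file headers name the unit. Library totals ran from 574195 to 606724 with fractional values, and in single-transcript genes cluster near multiples of a common step once multiplied by transcript length. That step gives an estimated 18700000 to 20600000 fragments per library. Intervals and counts of fragments cover counting error only. The submitters' processing notes name TopHat and mm10, and libraries came from a directional kit, per the labels' protocols. No source used here names the program or annotation behind the values.

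Groups and replicate numbers came from the sample titles. The treatment tags number the antibodies onward in replicates 2 and 3 and were not used. A gene entered the fit if 3 or more libraries reached 1 FPKM (10501 genes), as log2(FPKM + 1), which understates changes of low genes, with limma 3.58.1 in R 4.3.3 (trended, robust empirical Bayes, group as the single term, 2-sided, Benjamini-Hochberg over all genes tested, threshold 0.05). On simulated data with 200 genes changed per round, the procedure recovered 36.1% of 1.5-fold changes and 92.1% of 2-fold changes. The simulated noise was normal and independent between genes, and the changes were added on the log2(FPKM + 1) scale. In the data, larger differences also did not pass, such as Ikzf3 (log2 fold change -1.57, limma adjusted p = 0.139) and Cxcl10 (1.44, limma adjusted p = 0.129). Changes of 1.5-fold or less, and also changes of 2-fold and more, can thus be missed. Lengths and coordinates came from GENCODE M21 on GRCm38. Single values used exact permutation tests. Members and lists were chosen with earlier results of these data known. From each list the text names genes past the threshold, the most abundant gene and the 3 of lowest p, and the 3 genes closest to a member. Stat2, Tbk1, the Tlr genes, Spi1, Spib, Jun, Batf3, the Irf2bp genes and the neighbours of members were added after their values were seen. So were Ifnb1, Cxcl9, Ifit1, Ifit3, Mx2, Vcam1, Ifi35, Igtp and Isg15, and the markers other than the most abundant or detected ones. The same holds for Socs3, Ptpn2, Ifi47, Irgm1, Gbp3, Psmb9, Sp100, Samhd1 and Dtx3l. A few genes that the rule names are not reported here.

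Alternatives were the pseudocount, filter, scaling, moderation, replicate block and leaving out libraries. A correction for GC content and transcript length (mgcv 1.9.3) and a fit without both replicate 1 libraries were added after the data were seen. Plots used matplotlib 3.10.9 (Python 3.11.15).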

Additional observations from a re-analysis of the deposited data

How the results depend on the processing

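Under 17 alternatives no IRF gene passed the limma threshold. The log2 fold change of Irf2 stayed between -0.45 and -0.23, that of Irf4 between 0.35 and 0.53, and that of Irf5 between 0.44 and 0.96. Irf1 ranged from -0.17 to 0.13 with 1 library left out, changing sign without DTA-1 replicate 1 (0.13) and without IgG2b replicate 3 (0.050). Bri3 ranged from -0.020 (without IgG2b replicate 2) to 0.41, and B2m, up to 0.12 with 1 library left out, changed sign with equal totals (-0.021), quantile normalization (-0.032), without both replicate 1 libraries (-0.11), without DTA-1 replicate 3 (-0.0024) and without IgG2b replicate 1 (-0.12). The cause was not tested. With 0.1 added before the log, the difference in the log2 ratio of Irf4 over Irf8 was 1.40, against 0.81 to 1.06 with 1 library left out.

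Over all genes, the count of higher genes was 1 with no filter, 5 with quantile normalization, 1 with GC and length trends removed, 6 without both replicate 1 libraries and 1 to 3 with 1 library left out. The count of lower genes was 2 with equal totals and 2 with quantile normalization. With a replicate block, 59 genes were higher and 126 lower, among them Icam1 (limma adjusted p = 0.0420; range over alternatives 0.0420 to 0.249), the 1 list target called higher, and Ikzf3 (0.0187; range 0.0187 to 0.269), the 1 list partner called lower. Deviations of same-numbered libraries correlated at 0.39, -0.10 and -0.13 for numbers 1, 2 and 3. DTA-1 replicate 2 went best with IgG2b replicate 3. Deviations cancel out within each group of 3, which ties these correlations to each other. They therefore cannot show or exclude that the numbers pair the libraries. Count-based tests (DESeq2, edgeR) were not run, because the tables hold no counts. Depth limits Irf7 and Irf8, at 10 to 91 fragments per library.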
